A study of Mus musculus with 16 samples.

Results

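The genes described here encode the proteins that start and extend protein chains on the ribosome: the eukaryotic translation initiation factors (eIF) and elongation factors (eEF). They were taken by symbol from the count tables of mouse quadriceps muscle, as every symbol beginning Eif1 to Eif6 or Eef. The kinases of eIF2 (Eif2ak), the eIF4E-binding proteins (Eif4ebp) and Eif4enif1 were left out. Of 71 symbols that matched the pattern 8 were left out in this way, so that 63 of the 19108 genes in the tables remained. They were sorted into start-site and joining factors (10 genes), eIF2 (4), eIF2B (5), eIF3 (14), eIF4 (12), eIF5A (2), elongation factors (8) and the kinase and methyltransferases that act on elongation factors (8).

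The tables come from 16 mice of strain C57BL/6 aged 6 months, with 4 transgenic (Tg) females, 4 Tg males, 4 wild-type (WT) females and 4 WT males. Tg mice carry an Ant1 transgene, with the genotype written ANT1(Tg)/+. Ant1, also called Slc25a4, encodes the ADP/ATP carrier of mitochondria in heart and skeletal muscle. The labels name neither the promoter of the transgene nor the line; all mice ate regular chow, and littermates were the controls where this could be done. Slc25a4 ran from 8507 to 11044 CPM in Tg libraries, against 2792 to 3919 CPM in WT libraries (CPM, counts as a share of the library after TMM scaling, times 1000000). Libraries of polyadenylated RNA held 17435892 to 30680334 counts each. All 12 muscle fibre markers were read, and their summed level was 200314 to 283024 CPM in Tg muscle, against 206845 to 325834 CPM in WT muscle. In edgeR 2 of the 12 were called higher in Tg muscle (Des and Myh1) and 3 lower (Myh4, Tnnc2 and Tnnt3). Of 5 erythroid markers 1 was called higher. These counts are to be read beside the 17.2% of all tested genes called higher and the 13.3% called lower. Without the 3 adipocyte-rich WT libraries described below, Pvalb and Tnni2 were called lower as well (adjusted p = 0.00595 and 0.0343 in edgeR). The part of these markers in the results below was not tested. In whole muscle, fewer cells of a type and less RNA per cell cannot be told apart.

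In 3 libraries, all of them WT, adipocyte markers stood apart. The 10 markers summed to 4473, 5919 and 5915 CPM in WT female 1, WT female 2 and WT male 1, and to between 730 and 2787 CPM in the 8 Tg and the other 5 WT libraries. None of the 10 markers was at 0 throughout. In edgeR and in DESeq2 0 of 10 were called different between the genotypes, and 0 at an unadjusted p under 0.05. Since these libraries are a large part of the WT group, the counts of calls are given below with and without them.

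Translation starts when the small ribosomal subunit, loaded with initiator tRNA by eIF2 and held open by eIF1, eIF1A and eIF3, is brought to the capped end of an mRNA by eIF4 and scans to a start codon. eIF5 then triggers GTP hydrolysis on eIF2, eIF5B joins the large subunit, and eIF2B recharges eIF2 with GTP. Phosphorylation of the alpha subunit of eIF2 blocks eIF2B and slows initiation, which is the core of the integrated stress response. During elongation eEF1A delivers each aminoacyl-tRNA, the eEF1B complex recharges eEF1A, and eEF2 moves the ribosome along by a codon. Skeletal muscle is known for a switch from eEF1A1 to its close relative eEF1A2 after birth.

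Promoters are shown for 3 genes because these had the largest rise of an initiation factor gene (Eif3c), of an elongation factor gene (Eef2) and of a modifying enzyme gene (Eef1akmt4). RefSeq windows from 250 bases before to 50 bases after a start site (build GRCm38.p6) matched 49 of the 63 genes, with 60 windows in all. Each was searched on both strands for TGATGNAA, a form of the element read by the stress factor ATF4, and for CACGTG, the E-box bound by Myc and related factors. The 250 bases before the start are printed 5′ to 3′ on the strand of the gene, with a match in capitals. They lie at chr7:126566367-126566616 on the minus strand for Eif3c, at chr10:81176381-81176630 on the plus strand for Eef2, and at chr16:20611351-20611600 on the plus strand for Eef1akmt4.
Eif3c: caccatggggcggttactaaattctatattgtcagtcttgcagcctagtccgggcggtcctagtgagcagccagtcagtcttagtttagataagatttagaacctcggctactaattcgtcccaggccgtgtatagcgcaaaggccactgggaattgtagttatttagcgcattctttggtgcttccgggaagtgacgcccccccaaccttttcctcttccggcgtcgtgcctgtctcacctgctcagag
Eef2: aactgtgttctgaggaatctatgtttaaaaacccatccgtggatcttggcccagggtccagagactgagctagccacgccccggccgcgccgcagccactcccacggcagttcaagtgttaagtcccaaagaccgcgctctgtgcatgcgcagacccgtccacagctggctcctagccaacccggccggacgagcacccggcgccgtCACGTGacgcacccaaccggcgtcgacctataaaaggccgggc
Eef1akmt4: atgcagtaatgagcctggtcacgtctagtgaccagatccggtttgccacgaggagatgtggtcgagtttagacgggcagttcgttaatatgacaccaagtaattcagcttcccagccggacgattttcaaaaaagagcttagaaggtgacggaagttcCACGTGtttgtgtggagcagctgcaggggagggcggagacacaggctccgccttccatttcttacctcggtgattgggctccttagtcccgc

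The E-box began at position -43 relative to the start in Eef2 and at -92 in Eef1akmt4, whereas the Eif3c window held neither motif. In all, 15 of 49 genes had CACGTG in a window, beside 11.7% of the tested genes with a window and 7.15% of all windows. Among these genes, the E-box was in 7 of 25 called higher, in 2 of 2 called lower and in 6 of 22 not called. Eef1akmt4, called higher, and the entry for its readthrough into Ece2, not called, are both among the 15. The same E-box may thus be counted under both entries. TGATGNAA was in 2 of 49 genes, beside 2.79% of the tested genes with a window and 3.97% of all windows. These are Eef2k, called lower, and Eif2s3x, called higher. Both matches read TGATGNAA on the strand opposite to the gene and lie at positions -84 and -96, that of Eef2k before an alternative start inside the gene. They are shown because they are the only matches to this element among the factor genes with a window. They lie in chr7:120851085-120851132 on the plus strand for Eef2k and in chrX:94212720-94212767 on the minus strand for Eif2s3x, and no E-box overlapped either match. A match is a run of letters, and binding was not measured.
Eef2k: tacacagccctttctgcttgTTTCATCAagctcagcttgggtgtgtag
Eif2s3x: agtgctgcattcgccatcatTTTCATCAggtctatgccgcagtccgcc

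Across the whole set, translation factor genes were more often called higher than lower in Tg muscle with all libraries, mostly with a change of less than 1.5-fold. Of the 61 genes with enough counts to test, 29 were called higher and 5 lower at an adjusted p under 0.05 in edgeR's quasi-likelihood test, averaged over the sexes, and 27 were not called. These are 47.5% and 8.20% of the genes tested, beside 17.2% of all 13666 tested genes called higher and 13.3% called lower (30.4% in either direction). The counts by factor group below are to be read beside the same shares of all tested genes. Leaving out the 3 adipocyte-rich WT libraries, 17 were called higher and 12 lower, beside 14.8% and 15% of all genes tested then. The 12 include both Eif3j1 and Eif3j2, whose counts stand in a fixed ratio. Without WT female 2 alone 9 were called lower. Calls over all tested genes in either direction also rose in that fit, from 4158 with all libraries. With all libraries the median log2 fold change was 0.14, beside -0.01 for all tested genes. Without the 3 adipocyte-rich libraries it was 0.107, beside 0.015. With all libraries, only Eif3c and Eef1akmt4 were called with a change of at least 1.5-fold. All 8 Tg libraries lay above all 8 WT libraries for 8 genes (13.1%, beside 5.23% of all tested genes): Eif1, Eif1ad, Eif5, Eif6, Eif3c, Eif3i, Eef2 and Eef1akmt4. They lay below them for 1 gene, Eif4e3 (1.64%, beside 2.69%). With CPM from library totals alone, the Tg libraries lay above for 20 factor genes, beside 6.55% of all tested genes. Eif4e1b, a relative of eIF4E known from oocytes, and Eef1akmt3 were not tested, with at most 2 counts in any library.

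Together the 63 genes took 1.29 to 1.42% of the counts in Tg libraries, against 1.08 to 1.15% in WT libraries. Without Eif3c the share was 1.24 to 1.36% in Tg libraries, against 1.06 to 1.13% in WT libraries. Eif3c, Eef2, Eef1a2 and Eef1a1 carried most of the gap. Without these 4 the shares were 0.748 to 0.850% in Tg libraries and 0.706 to 0.804% in WT libraries. The overlap came from WT female 3 alone, at 0.804%. The other WT libraries, at 0.706 to 0.731%, lay below every Tg library.

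**Figure D1:**
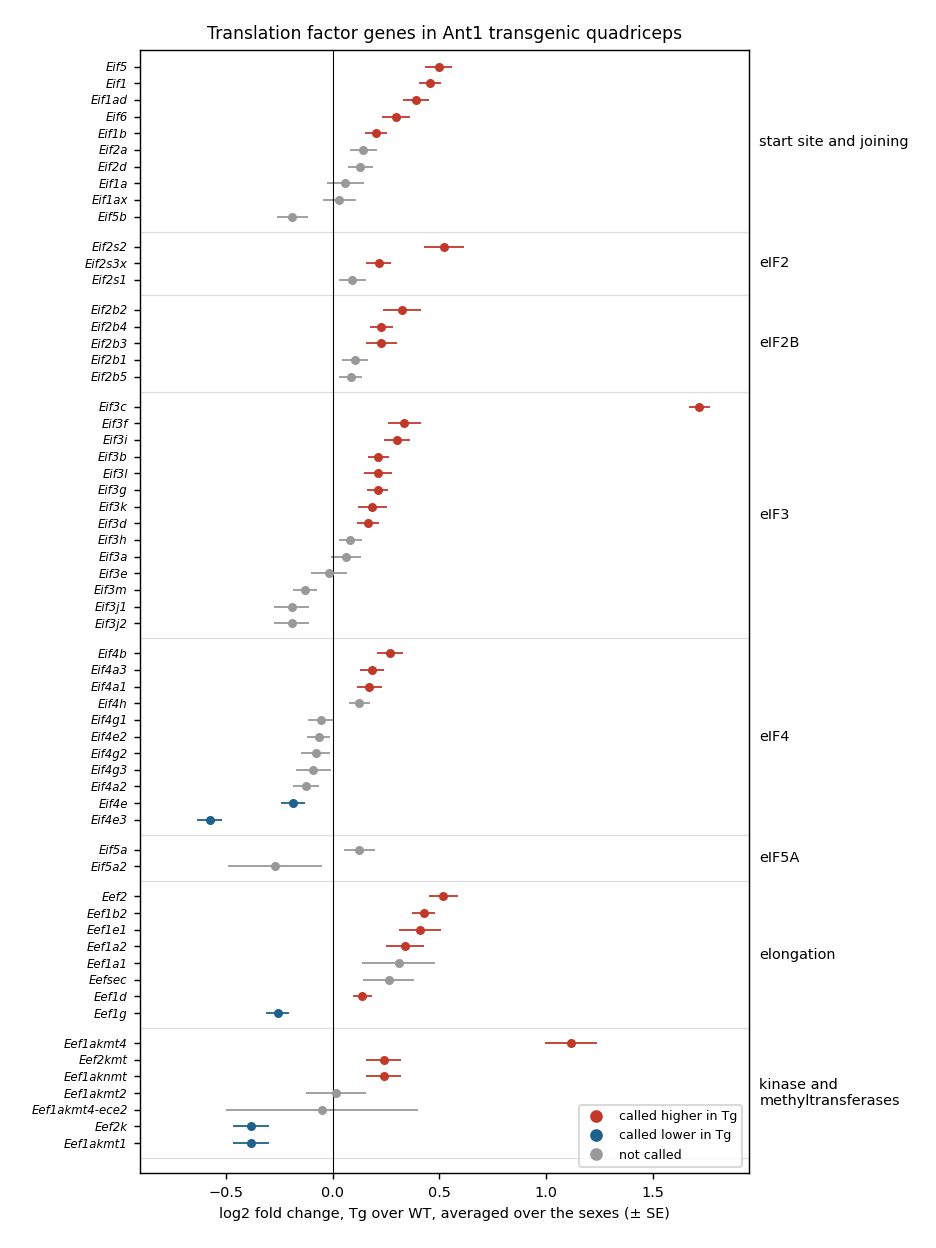
Log2 fold change, Tg over WT, averaged over the sexes, with its SE, for 60 of the 61 tested genes by factor group (Eif2s3y, read in males alone, is left out). Red points are genes called higher in Tg, blue points genes called lower and grey points genes not called; Eif3c at 1.72 and Eef1akmt4 at 1.12 stand apart, and the points called lower are in the eIF4, elongation and modifying enzyme groups.

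Among the start-site and joining factors, 5 of 10 rose (Eif5, Eif1, Eif1ad, Eif6 and Eif1b) and 0 were called lower in edgeR, with a median log2 fold change of 0.17. DESeq2 called 1 lower, and 1 was lower at an unadjusted p under 0.05 in edgeR. Eif1 encodes the factor that keeps the scanning ribosome from stopping at a wrong codon (chromosome 11, 100319885 to 100322096, plus strand). It had 720 to 857 CPM in Tg libraries (median 739), against 523 to 606 CPM in WT libraries (median 549). The lowest Tg library was above the highest WT library, and the log2 fold change was 0.46 (SE 0.05, adjusted p = 7.25e-06). Eif1 was also the highest gene of the group per length, at a median of 559 CPM per kb of transcript in Tg muscle, against 415 in WT muscle. Of its 75-base stretches 15.3% are shared with other loci.

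Eif5, whose product makes eIF2 hydrolyse its GTP at the start codon (chromosome 12, 111538016 to 111546752, plus strand), moved as much. It had 393, 371, 362 and 362 CPM in Tg females and 349, 307, 330 and 361 CPM in Tg males, against 248, 233, 305 and 255 CPM in WT females and 250, 266, 225 and 225 CPM in WT males. The groups did not overlap, though Tg male 2 at 307 CPM and WT female 3 at 305 CPM nearly met, and the log2 fold change was 0.50 (SE 0.06, adjusted p = 2.06e-05). Eif6, which keeps the large subunit from joining too early, had 26.7 to 33.2 CPM in Tg libraries (median 29.1), against 18.4 to 26.6 CPM in WT libraries (median 24.7), with a log2 fold change of 0.30 (adjusted p = 0.00207). Both Eif6 and Eif1ad, which has a domain like that of eIF1A, were apart between the genotypes in all libraries, Eif6 barely so. Eif1ad had 26.7 to 32.5 CPM in Tg libraries (median 29.4), against 18.6 to 25.1 CPM in WT libraries (median 22.5), with a log2 fold change of 0.39 (adjusted p = 1.27e-04).

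Eif1b, a further eIF1 gene, rose by a log2 fold change of 0.20 (adjusted p = 0.00662), with 24.9 to 28.1 CPM in Tg libraries and 21.0 to 25.2 CPM in WT libraries, which overlapped in the males. That call was lost without the 3 adipocyte-rich WT libraries (0.16, adjusted p = 0.0865). It was kept with the log2 adipocyte marker level as a covariate (0.19, adjusted p = 0.0107 in edgeR). The 5 members not called had log2 fold changes of -0.19 to 0.14. They are both eIF1A genes (Eif1a and the X-linked Eif1ax), Eif2a and Eif2d, which deliver tRNA outside the eIF2 complex, and Eif5b, the GTPase of subunit joining. Eif5b stood at -0.19 (SE 0.07, adjusted p = 0.064) and was called lower without WT female 1, without WT female 2 (adjusted p = 0.0227 to 0.0493) and without all 3 adipocyte-rich libraries (-0.29, adjusted p = 0.00749). Eif2a was called higher without WT female 3 (adjusted p = 0.0188) and Eif2d without WT female 4 (adjusted p = 0.0358).

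The subunits of eIF2 did not all pass the test: 2 of 4 rose and 0 were called lower in edgeR or DESeq2 (0 at an unadjusted p under 0.05), with a median log2 fold change of 0.15. The 4 genes and the median include the Y-linked Eif2s3y, which was at 0 in all female libraries. Its averaged value is therefore no estimate over both sexes. Eif2s2, the gene of the beta subunit (chromosome 2, 154871410 to 154892935, minus strand), had 428, 339, 377 and 313 CPM in Tg females and 328, 306, 341 and 362 CPM in Tg males, against 221, 188, 313 and 261 CPM in WT females and 242, 236, 257 and 225 CPM in WT males. Males were apart between the genotypes, while in females WT female 3 met the lowest Tg library, and the log2 fold change was 0.52 (SE 0.09, adjusted p = 4.67e-04). Eif2s1 encodes the alpha subunit, the one that stress kinases phosphorylate. It had 40.4 to 57.2 CPM in Tg libraries (median 50.4), against 40.7 to 59.6 CPM in WT libraries (median 45.9). These overlapped in both sexes, and its log2 fold change of 0.09 (SE 0.06, adjusted p = 0.306) was not called. Per length, Eif2s2 had a median of 134 CPM per kb in Tg muscle, against 94.0 in WT muscle, and Eif2s1 had 14.8 in Tg muscle, against 13.5 in WT muscle.

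The gamma subunit has an X-linked and a Y-linked gene in mice. Eif2s3x had 241, 214, 229 and 201 CPM in Tg females and 142, 135, 136 and 143 CPM in Tg males, against 184, 169, 223 and 213 CPM in WT females and 116, 120, 112 and 114 CPM in WT males. The genotypes overlapped in females and not in males. The call of the averaged log2 fold change of 0.22 (adjusted p = 0.0108) was lost without the adipocyte-rich libraries (0.12, adjusted p = 0.125). It was kept with the adipocyte marker level as a covariate (0.19, adjusted p = 0.0128 in edgeR). Of the 75-base stretches of its transcripts 34.2% are shared with the gene Gm2223, so that counts of the pair could have been split. Eif2s3y was read in males alone, with 27.9, 36.7, 46.2 and 62.2 CPM in Tg males, against 26.3, 46.7, 49.4 and 46.4 CPM in WT males. These overlapped, and the log2 fold change in males was 0.03 (adjusted p = 0.96).

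In the eIF2B complex, which exchanges GDP for GTP on eIF2, 3 of 5 subunit genes rose and 0 were called lower in edgeR or DESeq2 (0 at an unadjusted p under 0.05), with a median log2 fold change of 0.23. Eif2b4, for the delta subunit (chromosome 5, 31187558 to 31193430, minus strand), had 49.9, 51.0, 47.7 and 43.2 CPM in Tg females and 47.3, 51.2, 45.7 and 45.8 CPM in Tg males, against 38.6, 40.2, 36.2 and 44.2 CPM in WT females and 38.9, 44.5, 39.4 and 43.9 CPM in WT males. Males were apart between the genotypes; in females WT female 4 stood above Tg female 4, and the log2 fold change was 0.23 (SE 0.06, adjusted p = 0.00444). Eif2b2, for the beta subunit, overlapped in both sexes, with 40.0 to 59.7 CPM in Tg libraries (median 47.5), against 29.9 to 45.1 CPM in WT libraries (median 37.6), and rose by 0.33 on the log2 scale (adjusted p = 0.0119). Eif2b3, for the gamma subunit, overlapped at 17.1 to 21.4 CPM in Tg libraries and 13 to 18.9 CPM in WT libraries (0.23, adjusted p = 0.0256).

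The catalytic epsilon subunit gene Eif2b5, the highest of the complex per length, had 71.1 to 86.2 CPM in Tg libraries and 70.0 to 85.7 CPM in WT libraries (0.09, adjusted p = 0.261), and Eif2b1, for the alpha subunit, had a log2 fold change of 0.11 (adjusted p = 0.212). Without the 3 adipocyte-rich libraries 0 of the 5 genes were called in edgeR (2 at an unadjusted p under 0.05), and the median log2 fold change was 0.14. The values of the 3 genes then were 0.26 for Eif2b2 (adjusted p = 0.0925), 0.18 for Eif2b4 (adjusted p = 0.06) and 0.14 for Eif2b3 (adjusted p = 0.175). The Eif2b3 call was also lost without any 1 of WT male 1, WT male 3, WT male 4, Tg female 1, Tg male 1 or Tg male 2 (adjusted p = 0.0505 to 0.0539). With all libraries and the log2 adipocyte marker level as a covariate, all 3 genes were called higher (adjusted p = 0.0061 to 0.0321 in edgeR).

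**Figure D2:**
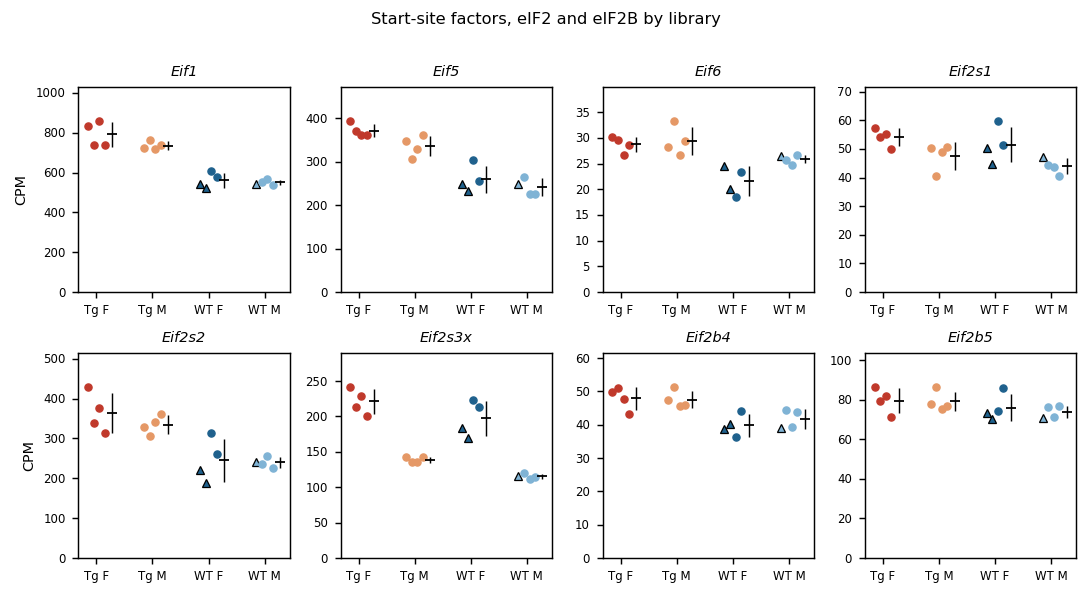
CPM of 8 start-site, eIF2 and eIF2B genes in each of 16 libraries, for Tg females, Tg males, WT females and WT males from left to right. Points are libraries, black-edged triangles are the 3 adipocyte-rich WT libraries, and the bars are the mean and SD of 4 libraries; Eif1, Eif5 and Eif6 are apart between the genotypes, while Eif2s1 overlaps.

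The largest change in the set was in Eif3c, which encodes a core subunit of eIF3, the scaffold on the small ribosomal subunit. The gene lies on chromosome 7 from 126546455 to 126566411 on the minus strand (build mm10). It had 639, 611, 641 and 611 CPM in Tg females and 565, 589, 558 and 587 CPM in Tg males, against 179, 167, 190 and 197 CPM in WT females and 187, 181, 179 and 178 CPM in WT males. The lowest Tg library, at 558 CPM, was far above the highest WT library, at 197 CPM. The log2 fold change was 1.72 (SE 0.05, adjusted p = 2.06e-13), with 1.77 in females and 1.67 in males, and the averaged value ran from 1.67 to 1.79 in the alternatives tried.

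No other eIF3 gene was called with a change of 1.5-fold. Divided by the median of the other 13 eIF3 genes of the same library, Eif3c stood at 5.64 to 7.09 in Tg libraries, against 1.74 to 2.16 in WT libraries. Per length, Eif3c had a median of 177 CPM per kb in Tg muscle, above all other eIF3 genes there. In WT muscle it had 53.2 CPM per kb, below Eif3e (97.7), Eif3h (92.1), Eif3i (83.3), Eif3k (66.0) and Eif3m (63.7). Of its 75-base stretches 4.38% are shared with another locus, Gm11224.

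Of the genes within 250 kb on either side of Eif3c, 20 others were tested, 8 of them called higher and 1 lower, beside 17.2% and 13.3% of all tested genes. The next tested gene upstream, Cln3, had 6.44 ± 0.367 CPM in Tg muscle and 7.0 ± 0.873 CPM in WT muscle (SD, n = 8 each) and was not called (-0.12, adjusted p = 0.299 in edgeR). The next tested gene downstream, Atxn2l, had 118 ± 8.68 CPM in Tg muscle and 60.3 ± 5.30 CPM in WT muscle (SD, n = 8 each), a rise of 0.97 on the log2 scale (adjusted p = 8.11e-09 in edgeR). The stress-responsive gene Nupr1 had the highest fold change of the stretch, a log2 value of 2.44, and Fam57b was the one called lower, at -1.34. These neighbours were singled out after their values were seen.

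Among the 14 eIF3 genes 8 rose and 0 were called lower in edgeR, with a median log2 fold change of 0.18. DESeq2 called 7 higher and 1 lower, and 3 were lower at an unadjusted p under 0.05 in edgeR. Apart from Eif3c, the rises were of 0.17 to 0.34. Eif3i had 117, 108, 112 and 102 CPM in Tg females and 113, 136, 103 and 107 CPM in Tg males, against 88.9, 76.7, 85.4 and 94.6 CPM in WT females and 98.0, 97.1, 94.8 and 92.5 CPM in WT males. It was apart between the genotypes, at 0.30 (SE 0.06, adjusted p = 0.00122). Its partners in the same module, Eif3b and Eif3g, rose by 0.22 and 0.21 (adjusted p = 0.00306 and 0.00397). Eif3b had 113 to 135 CPM in Tg libraries (median 122), against 97.5 to 115 CPM in WT libraries (median 105) and was apart within each sex. Eif3g had 53.4 to 63.1 CPM in Tg libraries (median 56.6), against 43.2 to 54.8 CPM in WT libraries (median 49.3), apart in males and overlapping in females through WT female 4.

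Eif3f rose the most after Eif3c, with 133 to 198 CPM in Tg libraries (median 148), against 104 to 135 CPM in WT libraries (median 120) (0.34, adjusted p = 0.00369). Its highest library, Tg male 2, stood well above the rest. Eif3d, known for binding the cap of some mRNAs, had 58.8 to 67.7 CPM in Tg libraries (median 61.1), against 48.9 to 63.3 CPM in WT libraries (median 55.5) (0.17, adjusted p = 0.0228). It overlaps Gm17638, a transcript of the opposite strand, and its call was lost without WT male 1 or without Tg female 2 (adjusted p = 0.0514 to 0.0526). Eif3l, with 59.9 to 75.2 CPM in Tg libraries and 50.8 to 69.5 CPM in WT libraries, was apart in females and overlapped in males (0.21, adjusted p = 0.0211). Eif3k (0.19, adjusted p = 0.0489) was barely under the threshold. Its call was lost on leaving out any 1 of 12 libraries, with an adjusted p of 0.0503 to 0.0996. With 1 library left out, the call held only without Tg female 4, Tg male 3, Tg male 4 or WT female 4. It was also lost with DESeq2, with RLE size factors and with no filter on low counts.

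Of the 6 eIF3 genes not called, Eif3h had 117 to 139 CPM in Tg libraries and 104 to 130 CPM in WT libraries (0.08, adjusted p = 0.263). Eif3e, the highest per length in WT muscle, had 131 to 168 CPM in Tg libraries and 127 to 206 CPM in WT libraries (-0.02, adjusted p = 0.898). Eif3a, the other core scaffold subunit, had a log2 fold change of 0.06 (adjusted p = 0.515). Eif3m was at -0.13 (adjusted p = 0.0835) and was called lower without WT female 2 (adjusted p = 0.022). The Eif3j genes were both at -0.19 (adjusted p = 0.0883 and 0.0888) and were called lower without WT female 2 as well (adjusted p = 0.0105 and 0.0106). The counts of Eif3j2 were 1.08 times those of Eif3j1 in all 16 libraries, and 87.4% of its 75-base stretches are shared, so this pair carries 1 signal. Without the 3 adipocyte-rich libraries 4 eIF3 genes were called higher (Eif3c, Eif3i, Eif3b and Eif3l) and 3 lower (Eif3m and both Eif3j genes).

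**Figure D3:**
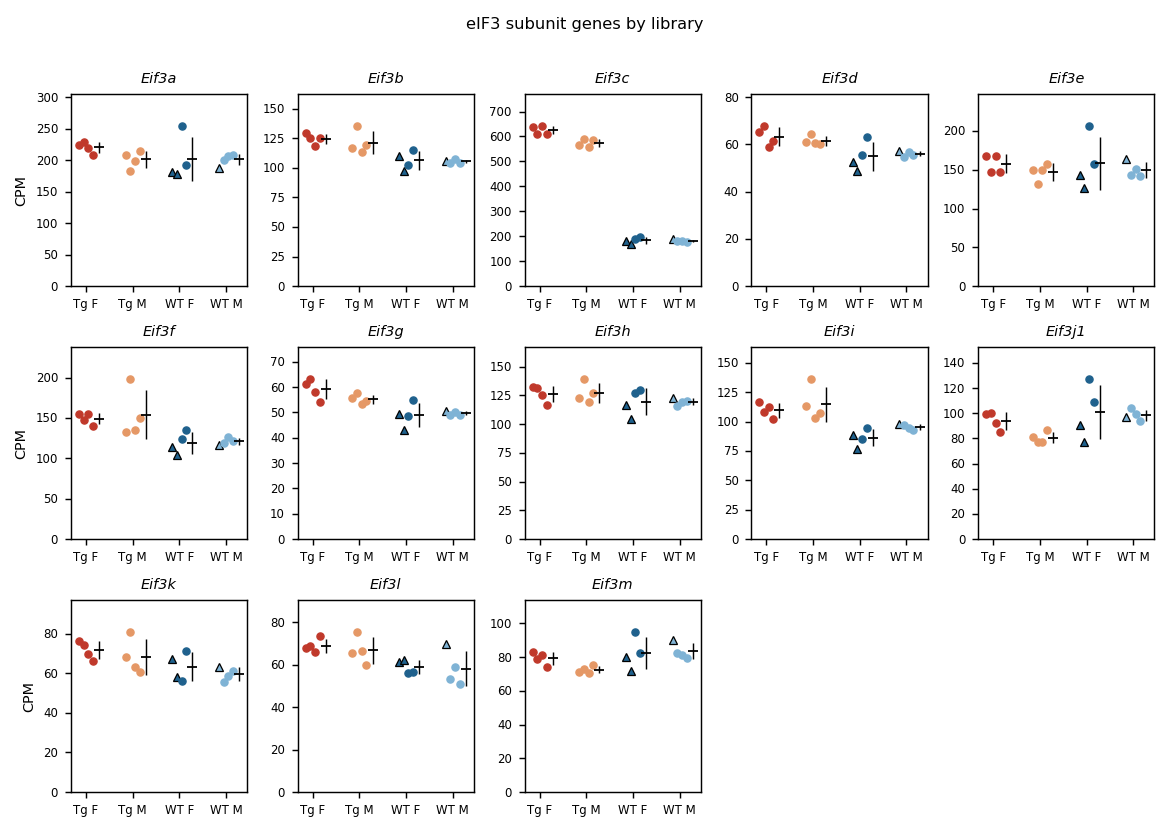
CPM of 13 eIF3 subunit genes in each of 16 libraries, Tg females and Tg males left of WT females and WT males (Eif3j2, a copy of the Eif3j1 signal, is left out). Points are libraries, black-edged triangles the 3 adipocyte-rich WT libraries, and bars the mean and SD of 4 libraries; only Eif3c is several times higher in Tg, at 558 to 641 CPM against 167 to 197 CPM.

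The eIF4 group, which recognises the cap and unwinds the mRNA, was mixed: 3 of 11 tested genes rose, 2 fell and the median log2 fold change was -0.07, beside 17.2% and 13.3% of all tested genes and a median of -0.01. The group was formed by symbol, and the 3 include Eif4a3, the helicase of the exon junction complex. With the 3 adipocyte-rich libraries left out, 2 eIF4 genes were called higher and 5 lower, with a median of -0.16. Eif4e3, a cap-binding relative of eIF4E, fell the most of all 61 genes (chromosome 6, 99625135 to 99666771, minus strand). It had 29.8, 30.0, 26.7 and 26.8 CPM in Tg females and 30.2, 27.6, 29.8 and 28.1 CPM in Tg males, against 47.5, 42.5, 47.5 and 39.9 CPM in WT females and 47.1, 40.3, 38.2 and 38.7 CPM in WT males. Every Tg library was below every WT library, and the log2 fold change was -0.58 (SE 0.06, adjusted p = 1.77e-06). Without the 3 adipocyte-rich libraries it was -0.55. A share of 9.50% of its 75-base stretches lies in Gm20696, an annotated gene that overlaps it on the same strand.

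Eif4e, the cap-binding protein itself, had 79.9 to 93.0 CPM in Tg libraries (median 86.2), against 82.7 to 105 CPM in WT libraries (median 98.9). The genotypes were apart in males and overlapped in females, and the log2 fold change was -0.19 (SE 0.06, adjusted p = 0.0206). Scaled by library totals alone, Eif4e was not called (adjusted p = 0.148). Eif4b, a cofactor of the helicase eIF4A, rose by 0.27 on the log2 scale (SE 0.06, adjusted p = 0.00243), with 358 to 404 CPM in Tg libraries (median 385), against 280 to 371 CPM in WT libraries (median 319). The overlap came from WT female 3, at 371 CPM. Eif4a3, the helicase of the exon junction complex, was at 26.6 to 30.3 CPM in Tg libraries and 21.1 to 28.4 CPM in WT libraries (0.19, adjusted p = 0.0189), and its call was lost without WT male 1 (adjusted p = 0.0534).

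The helicase genes Eif4a1 and Eif4a2 differed in their calls. Eif4a1 had 96.1 to 119 CPM in Tg libraries (median 105), against 81.8 to 103 CPM in WT libraries (median 95.4) (0.17, adjusted p = 0.0389), and Eif4a2 had 339 to 430 CPM in Tg libraries (median 355), against 358 to 527 CPM in WT libraries (median 390) (-0.13, adjusted p = 0.136). The Eif4a1 call was lost without any 1 of Tg female 1, Tg female 4, Tg male 1, Tg male 3, Tg male 4, WT male 3, WT male 4 or WT female 4 (adjusted p = 0.0536 to 0.0864), and 25.4% of its 75-base stretches are shared with other loci. Per length Eif4a2 was the higher of the pair, at a median of 131 CPM per kb in Tg muscle and 144 in WT muscle, beside 58.9 in Tg muscle and 53.8 in WT muscle for Eif4a1. The scaffold gene Eif4g1 had 697 to 807 CPM in Tg libraries (median 767), against 674 to 865 CPM in WT libraries (median 795) and was not called (-0.05, SE 0.06, adjusted p = 0.519). Eif4g2 (-0.08), Eif4g3 (-0.09), the 4EHP gene Eif4e2 (-0.07) and the helicase cofactor gene Eif4h (0.13) were not called either (adjusted p = 0.0633 to 0.438). Eif4h was called higher without WT female 4 (adjusted p = 0.0343).

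Neither gene of eIF5A, the hypusine-bearing factor that helps the ribosome over difficult peptide bonds, was called in edgeR or DESeq2 (0 at an unadjusted p under 0.05). Eif5a had 290 to 345 CPM in Tg libraries (median 310), against 228 to 339 CPM in WT libraries (median 285), overlapping in both sexes, at 0.13 on the log2 scale (SE 0.07, adjusted p = 0.212). Scaled by library totals alone, Eif5a was called higher (adjusted p = 0.00195 in edgeR). Eif5a2 was scarce, at 0.836 to 1.69 CPM in Tg libraries and 0.772 to 2.13 CPM in WT libraries (-0.27, SE 0.22, adjusted p = 0.393).

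The elongation factors had the highest median log2 fold change of the groups, at 0.32, with 5 of 8 higher and 1 lower. This group was formed by symbol too, and the 5 include Eef1e1, of the complex of aminoacyl-tRNA synthetases. Eef2, the translocase (chromosome 10, 81176631 to 81182498, plus strand), had 2220, 2134, 2140 and 2205 CPM in Tg females and 2126, 2858, 2083 and 2244 CPM in Tg males, against 1593, 1450, 1460 and 1704 CPM in WT females and 1636, 1581, 1569 and 1572 CPM in WT males. All Tg libraries were above all WT libraries, and the log2 fold change was 0.52 (SE 0.07, adjusted p = 3.11e-05). Eef1b2, a nucleotide exchange subunit of eEF1B (chromosome 1, 63176825 to 63180486, plus strand), had 222, 201, 208 and 177 CPM in Tg females and 176, 171, 169 and 164 CPM in Tg males, against 153, 139, 161 and 165 CPM in WT females and 132, 119, 124 and 116 CPM in WT males. Within each sex it was apart between the genotypes, at 0.43 (SE 0.05, adjusted p = 2.09e-05).

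The subunit genes of eEF1B were called in both directions. Eef1d, the other exchange subunit gene, had 100 to 116 CPM in Tg libraries (median 110), against 91.8 to 107 CPM in WT libraries (median 98.9) (0.14, SE 0.05, adjusted p = 0.0269); its call was lost without any 1 of Tg female 1, Tg female 3, Tg male 4 or WT male 1 (adjusted p = 0.0521 to 0.0624). Eef1g, the structural gamma subunit gene (chromosome 19, 8967041 to 8978479, plus strand), had 401, 385, 373 and 356 CPM in Tg females and 379, 344, 356 and 378 CPM in Tg males, against 405, 398, 447 and 497 CPM in WT females and 447, 437, 465 and 454 CPM in WT males. Males were apart between the genotypes, females met at Tg female 1 and WT female 2, and the difference was -0.26 on the log2 scale (SE 0.06, adjusted p = 0.00188). Other loci share 38.0% of its 75-base stretches, so its counts are uncertain.

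Eef1e1, whose product belongs to the complex of aminoacyl-tRNA synthetases, had 11.7 to 17.8 CPM in Tg libraries (median 13.7), against 8.13 to 13.6 CPM in WT libraries (median 10.7). Males were apart, females overlapped at WT female 3, and the log2 fold change was 0.41 (SE 0.10, adjusted p = 0.00486). Eefsec, which brings the tRNA of selenocysteine, had 6.04 to 7.08 CPM in Tg libraries and 3.68 to 7.72 CPM in WT libraries (0.26, SE 0.12, adjusted p = 0.11). It was called higher without WT female 4, the highest WT library (0.37, adjusted p = 0.00896).

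Of the eEF1A genes, Eef1a2, the form of muscle and nerve, was the highest of all elongation factor genes per length, at a median of 990 CPM per kb in Tg muscle, against 818 in WT muscle (chromosome 2, 181147653 to 181157014, minus strand). It had 2250, 2318, 2113 and 1774 CPM in Tg females and 1982, 2586, 1916 and 2012 CPM in Tg males, against 1674, 1413, 1366 and 1908 CPM in WT females and 1596, 1736, 1906 and 1816 CPM in WT males. Males were apart, females overlapped through Tg female 4 and WT female 4, and the log2 fold change was 0.34 (SE 0.09, adjusted p = 0.00896). Without the 3 adipocyte-rich libraries the gene was not called (0.27, adjusted p = 0.0726). With the adipocyte marker level as a covariate it was called higher (0.32, adjusted p = 0.0115 in edgeR).

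Eef1a1, the form of most other tissues and cell types, varied widely between libraries. It had 384, 422, 492 and 628 CPM in Tg females and 774, 760, 741 and 712 CPM in Tg males, against 616, 778, 536 and 307 CPM in WT females and 597, 328, 358 and 393 CPM in WT males. Males were apart between the genotypes while females overlapped, and the 3 highest WT values were those of the adipocyte-rich libraries. The averaged log2 fold change was 0.31 (SE 0.17, adjusted p = 0.193), with 0.83 in males (adjusted p = 0.0262) and -0.22 in females (adjusted p = 0.57). A difference between the sexes was not called (adjusted p = 0.481). Without the 3 libraries Eef1a1 was called higher, at 0.60 (SE 0.14, adjusted p = 0.0044), with 1.02 in males and 0.19 in females. Of its 75-base stretches 26.6% are shared with other loci.

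Among the enzymes that act on elongation factors, 3 of 7 tested genes rose and 2 fell, with a median log2 fold change of 0.02. The shares of all tested genes were 17.2% higher and 13.3% lower. Eef1akmt4, a methyltransferase of eEF1A (chromosome 16, 20611593 to 20619011, plus strand), had 5.38, 4.72, 5.05 and 4.49 CPM in Tg females and 4.52, 4.45, 4.10 and 3.93 CPM in Tg males, against 2.62, 1.87, 1.60 and 2.81 CPM in WT females and 1.92, 2.33, 1.85 and 1.85 CPM in WT males. All Tg libraries were above all WT libraries, at 1.12 (SE 0.12, adjusted p = 2.61e-06). It shares 26.3% of its 75-base stretches with Gm49333, a transcript on the same strand, and also overlaps Alg3 on the other strand. The separate entry for the readthrough into Ece2 was at most 0.805 CPM and was not called (-0.05, SE 0.45).

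Eef2k, the kinase that inhibits eEF2 (chromosome 7, 120842831 to 120907450, plus strand), had 67.6, 58.9, 65.2 and 54.9 CPM in Tg females and 77.5, 97.0, 76.0 and 67.6 CPM in Tg males, against 88.1, 72.8, 83.3 and 93.9 CPM in WT females and 89.6, 97.9, 116 and 90.5 CPM in WT males. Females were apart while in males Tg male 2 lay within the WT range, and the log2 fold change was -0.38 (SE 0.08, adjusted p = 0.00214). Eef1akmt1, the highest of the group per length, was also at -0.38 (adjusted p = 0.00272), with 13.3 to 16.8 CPM in Tg libraries and 13 to 21.8 CPM in WT libraries; males were apart and WT female 2 was the lowest of all. Eef1aknmt, another methyltransferase of eEF1A (older symbol Mettl13), and Eef2kmt, which methylates eEF2, both rose by 0.24 (adjusted p = 0.0396 and 0.0346). Neither call was stable: leaving out 1 library ended it for 8 of 16 libraries in Eef1aknmt (WT male 1, WT female 1, Tg female 2, WT male 2, WT female 2, Tg male 2, WT male 4 and Tg male 4; adjusted p = 0.0524 to 0.0878). In Eef2kmt this held for 10 of 16 libraries, all but WT male 1, WT female 1, Tg female 2, WT male 3, WT female 4 and Tg male 4 (adjusted p = 0.0536 to 0.0721).

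**Figure D4:**
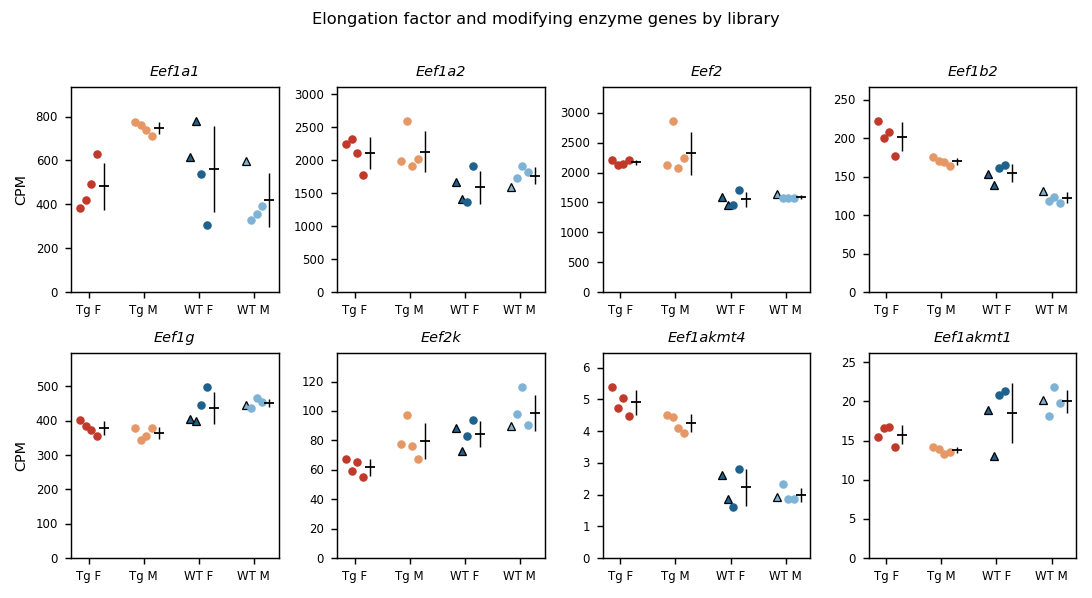
CPM of 5 elongation factor genes and 3 modifying enzyme genes in each of 16 libraries, Tg females and Tg males left of WT females and WT males. Points are libraries, black-edged triangles the 3 adipocyte-rich WT libraries, and bars the mean and SD of 4 libraries; Eef2 and Eef1akmt4 are apart between the genotypes, and Eef1a1 is spread widely in females.

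Ratios between close relatives within a library do not depend on how libraries are scaled. Of 7 pairs, 2 differed by an exact permutation test within the sexes (two-sided, 4900 arrangements, adjusted over the 7 pairs). The count ratio Eif4a1/Eif4a2 was 0.241 to 0.346 in Tg libraries (median 0.291), against 0.186 to 0.257 in WT libraries (median 0.236), a log2 difference of 0.30 (exact p = 0.00367, adjusted p = 0.0129). The ratio Eif1b/Eif1 was 0.0328 to 0.0378 in Tg libraries (median 0.0346), against 0.0357 to 0.0461 in WT libraries (median 0.0422), a log2 difference of -0.25 (exact p = 0.00163, adjusted p = 0.0114). Both genes of that last pair rose, Eif1 by more.

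Eif4e2/Eif4e differed by 0.12 (adjusted exact p = 0.061; 0.0171 to 0.0267 without WT female 4, WT male 3 or WT male 4) and Eif5a2/Eif5a by -0.37 (adjusted exact p = 0.338). The ratios Eef1a1/Eef1a2 (0.02), Eif1a/Eif1ax (0.02) and Eif4g3/Eif4g1 (-0.03) had adjusted exact p of 0.609 to 0.956. For Eef1a1/Eef1a2 the spread was wide, with a ratio of 0.170 to 0.391 in Tg libraries and 0.161 to 0.551 in WT libraries. Without the 3 adipocyte-rich libraries it was 0.34 higher in Tg on the log2 scale (adjusted exact p = 0.316).

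Within the sexes, 17 genes were called higher and 2 lower in females, beside 10.1% and 7.57% of all tested genes (17.7% in either direction). In males 14 were called higher and 3 lower, beside 9.85% and 8.39% (18.2% in either direction). The count in males moved with the setting: 30 were called higher with library totals alone, beside 14.8% of all genes, and 9 with RLE size factors, beside 7.92%. DESeq2 called 7 lower, beside 10.7%. Leaving out WT male 2, WT male 3 or WT male 4 left 8, 8 and 7 called higher, and leaving out Tg male 1 or Tg male 4 left 9 each. Calls over all tested genes in males, 2492 in either direction with all libraries, also fell in each of these fits. In males 6 were called lower without WT female 2 and 7 without WT female 3, and in females 5 were called lower without WT female 2. Over all tested genes, calls in males in either direction rose in both fits. Those in females fell without WT female 2, from 2416 with all libraries. The 10 genes called in both sexes had the same sign in each: Eif3c, Eif1, Eif5, Eif1ad, Eif2s2, Eif3i, Eef2, Eef1b2 and Eef1akmt4 were higher and Eif4e3 lower. The sign was shared by 54 of the 61 genes. Eif2s3y, at 0 in all females, is among the 61 here and in the next count, and could neither share a sign nor be called there. The male minus female difference of the Tg effect was called for 0 of 61 genes in edgeR and for 0 in DESeq2, beside 0.00732% of all genes, and for 1 at an unadjusted p under 0.05. Calls in 1 sex alone are thus not shown to differ between the sexes. For example, Eif6 was called in females (0.41, adjusted p = 0.00511) and not in males (0.18, adjusted p = 0.194), with an adjusted p of 0.732 for the difference.

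Without the 3 adipocyte-rich WT libraries more genes were called lower and fewer higher. Of the 29 called higher with all libraries, 16 remained. The 13 that did not are Eef1a2, Eef1d, Eef1aknmt, Eif1b, Eif2b2, Eif2b3, Eif2b4, Eif2s3x, Eif3d, Eif3f, Eif3g, Eif3k and Eif4a3, all with a log2 fold change still above 0. The 5 genes called lower remained, and 7 more were called lower: Eif3j1, Eif3j2, Eif3m, Eif4a2, Eif4e2, Eif4g3 and Eif5b. Eif3j1 and Eif3j2 carry the same signal, yet each is counted here and in the other counts of calls. With the log2 adipocyte marker level as a covariate in place of leaving libraries out, 30 genes were called higher (beside 18.1% of all) and 8 lower (beside 14.8%). Of the 13 genes above, all but Eef1aknmt (adjusted p = 0.0529 in edgeR) kept their call as higher in that fit. Of the 7 further genes called lower, only Eif3j1, Eif3j2 and Eif5b were called lower in it.

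In females 7 genes were called higher and 7 lower without the libraries, beside 7.57% and 7.99% of all tested genes. Of the WT females only WT female 3 and WT female 4 then remained, so this contrast rests on few animals. In males 12 were called higher and 7 lower, beside 8.05% and 9.82%, with WT male 2, WT male 3 and WT male 4 remaining. How far these counts moved through fewer WT animals was not tested. By group, 4 start-site genes, 1 eIF2 gene, 0 eIF2B genes, 4 eIF3 genes, 2 eIF4 genes, 4 elongation factor genes and 2 modifying enzyme genes were then called higher in edgeR. Called lower were 5 eIF4 genes, 3 eIF3 genes, 2 modifying enzyme genes, 1 elongation factor gene and 1 start-site gene. Among the genes with the largest rises, Eif3c was at 1.67 (1.72 with all libraries), Eef1akmt4 at 1.10 (1.12) and Eef2 at 0.49 (0.52). Eif5 was at 0.43 (0.50 with all libraries), Eif1 at 0.39 (0.46) and Eef1b2 at 0.39 (0.43). Eif2s2 moved the most of these, to 0.39 from 0.52 with all libraries.

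**Figure D5:**
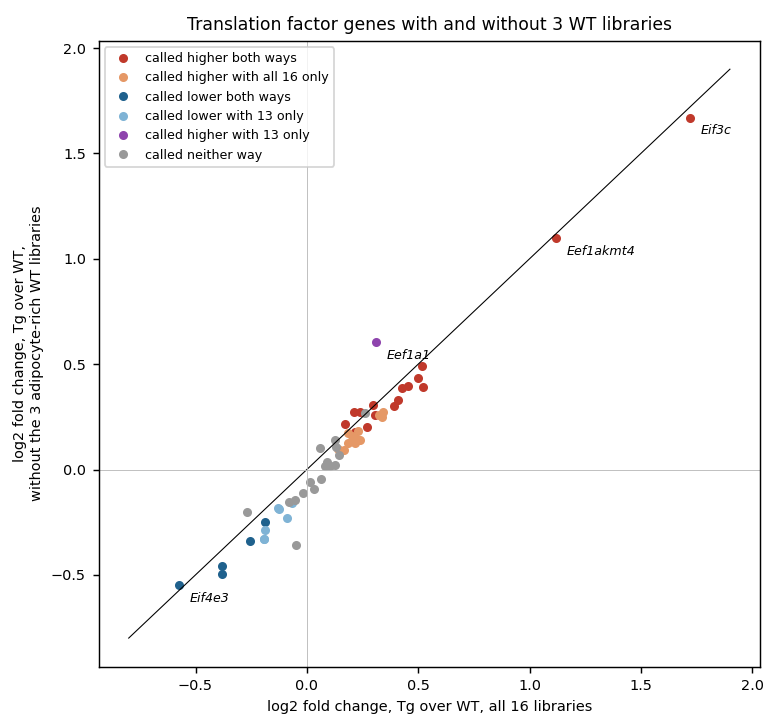
Log2 fold change, Tg over WT, without the 3 adipocyte-rich WT libraries (vertical axis) and with all 16 libraries (horizontal axis), 1 point per gene, for 60 genes; the diagonal marks equal values. Most points lie below the diagonal, 13 genes lose a call as higher, Eef1a1 is at 0.60 beside 0.31 with all libraries, and Eif3c and Eef1akmt4 stay close to the diagonal.

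Genes that work beside these factors but carry other symbols were counted in 4 lists, to be read beside the 17.2% of all tested genes called higher and the 13.3% called lower (14.8% and 15% without the adipocyte-rich libraries). Of 9 genes that build the modified residues of eIF5A and eEF2 (hypusine and diphthamide), 6 were higher and 0 lower in edgeR and in DESeq2 (0 lower at an unadjusted p under 0.05), with a median log2 fold change of 0.30. Without the adipocyte-rich libraries 4 were higher and 0 lower in edgeR (0 lower at an unadjusted p under 0.05). Dph5 of diphthamide synthesis had 8.52 ± 0.702 CPM in Tg muscle and 5.78 ± 0.585 CPM in WT muscle (SD, n = 8 each; 0.56, adjusted p = 5.75e-05 in edgeR). Dhps, which makes the precursor of hypusine on eIF5A, had 24.0 ± 1.66 CPM in Tg muscle and 18.3 ± 2.18 CPM in WT muscle (SD, n = 8 each; 0.39, adjusted p = 3.51e-04 in edgeR). Dph7, also of diphthamide synthesis, rose by 0.425 on the log2 scale.

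Of 16 other cytosolic initiation genes 4 were higher and 6 lower, with a median of -0.13. Without the adipocyte-rich libraries 3 were higher and 8 lower. Bzw2, a mimic of eIF5, had 183 ± 16.8 CPM in Tg muscle and 92.3 ± 8.72 CPM in WT muscle (SD, n = 8 each; 0.99, adjusted p = 8.32e-09 in edgeR), and Mknk1, a kinase of eIF4E, had 51.7 ± 3.59 CPM in Tg muscle and 33.7 ± 4.74 CPM in WT muscle (SD, n = 8 each; 0.62, adjusted p = 1.36e-06 in edgeR). Ddx3x, an X-linked helicase, fell by 0.43 on the log2 scale. Bzw1, a relative of Bzw2, was called lower (-0.28, adjusted p = 0.0119 in edgeR), and was named after its values were seen. Of 13 genes of termination, recycling and ribosome rescue 4 were higher and 0 lower in edgeR (3 and 0 in DESeq2, with 0 lower in edgeR at an unadjusted p under 0.05), with a median of 0.01; Gtpbp2, which helps stalled ribosomes, rose by 0.80, its relative Gtpbp1 by 0.33, and Pelo, of the rescue of ribosomes at the end of an mRNA, by 0.255 (adjusted p = 0.0108). Without the adipocyte-rich libraries 3 of the 13 were higher and 2 lower (Etf1 and Abcf2, named after their values were seen). Of 11 mitochondrial translation factors 2 were higher (Tsfm at 0.21, Mtif3 at 0.17) and 1 lower (Guf1 at -0.20), with a median of -0.00. Without the adipocyte-rich libraries 0 of the 11 were called higher in edgeR (2 at an unadjusted p under 0.05) and 1 was lower. Apart from Tsfm, Mtif3, Etf1 and Abcf2, the genes of the 4 lists named here kept their calls without those libraries.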

How the data were processed

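RNA from quadriceps of 16 mice was sequenced as stranded, paired-end mRNA libraries, per the labels' protocols. Tools named in the submitters' processing notes are bcl2fastq, cutadapt 1.2.1, Bowtie2 and TopHat2, with the build mm10; the counter and its annotation are not stated. The authors deposited estimated counts per gene for each sample: 95.02% of the nonzero values were whole, within 0.01 or a relative 1e-05. They were rounded to whole numbers, a move of at most 0.5.

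Genes were kept by filterByExpr (at least 10 counts, total of at least 15), which left 13666, scaled by TMM factors of 0.887 to 1.10 and fitted over all 4 groups with edgeR 4.0.16 in R 4.3.3 (quasi-likelihood test, Benjamini-Hochberg adjustment over all tested genes, threshold 0.05, biological coefficient of variation 0.201). Fold changes are Tg over WT, averaged over the sexes or within a sex; their male minus female difference is the interaction term. CPM use TMM-scaled library sizes. Ratios of relatives used counts plus 0.5 and an exact permutation test within the sexes; a planned pair, Eif3j1 and Eif3j2, was dropped because its ratio is fixed. Lengths, positions and shared 75-base stretches come from the GENCODE annotation and transcripts of GRCm38 (mm10). Scripts were tested on simulated data.

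Alternatives were DESeq2 1.42.0, its size factors, upper-quartile factors, library totals alone, other filters, a fit without the interaction and each library left out. A fit without the 3 libraries whose adipocyte markers exceeded 2 times the median, and one with the log2 marker level as a covariate, were chosen after seeing the data. The factor genes and lists were chosen with earlier results of these data known. Values were printed for called genes whose 8 Tg libraries all lay on one side of the 8 WT libraries, for the most abundant gene per length of each group, for up to 3 further called genes of a group by adjusted p, and for up to 3 called genes of each other list. Further genes were named to account for every member, after their values were seen. Replicate numbers follow accession order, and p-values measure the spread between these samples.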

Additional observations from a re-analysis of the deposited data

Results flagged for a closer look

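In groups of 4 libraries, a library was singled out where its gap to the nearest of the others was over the 95% critical value of Dixon's test. Of 272 groups tested 11 met this, where chance gives about 1 in 20. WT male 1 had 3 of them, Tg female 2, Tg female 4 and Tg male 2 had 2 each, and WT male 2 and WT male 3 had 1 each. No explanation was tested.

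Tg male 2 was above the other Tg males for Eef1a2 (2586 CPM, others 1917 to 2012) and for Eef1aknmt (12.1 CPM, others 9.80 to 10.2). Tg female 2 was above the other Tg females for Eef1aknmt (13.2 CPM, others 10.3 to 10.5) and for the ratio Eif4e2/Eif4e (0.712, others 0.667 to 0.671). Tg female 4 was below them for Eif5b (112 CPM, others 131 to 133) and above them for the ratio Eif4a1/Eif4a2 (0.311, others 0.241 to 0.246).

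WT male 1, an adipocyte-rich library, was above the other WT males for Eefsec (6.11 CPM, others 4.48 to 4.67) and the ratio Eef1a1/Eef1a2 (0.374, others 0.188 to 0.216). It was below them for Eif2s3y (26.3 CPM, others 46.4 to 49.4). WT male 2 was above them for Eef1akmt4 (2.33 CPM, others 1.85 to 1.92), and WT male 3 was below them for the ratio Eif1b/Eif1 (0.0375, others 0.0447 to 0.0461).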

How the results depend on the processing

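No paired analysis was possible because the replicate numbers follow accession order and no label links a Tg mouse to a WT mouse. Of 1499 averaged log2 fold changes of factor genes under alternatives, 1363 kept their direction and side of the threshold, 75 lost a call, 35 gained one and 26 changed sign, in 7 genes; the cause was not tested. Counts and ratios are given apart from these. Of the 34 called genes, 18 kept their call under every alternative: Eif3c, Eif1, Eif5, Eif1ad, Eif6, Eif2s2, Eif3b, Eif3i, Eif3l, Eif4b, Eif4e3, Eef1b2, Eef2, Eef1g, Eef1e1, Eef1akmt4, Eef2k and Eef1akmt1. Some other calls were lost with a change of method or scaling. Eif3k lost its call with DESeq2, with RLE size factors and with no filter on low counts. Eef1aknmt lost it with DESeq2 and with RLE size factors, and Eif3d and Eef1d with RLE size factors. Eif4a1 lost it with RLE size factors and with library totals alone, and Eif4e with library totals alone. Other genes gained a call in this way. Library totals alone put Eif5a, Eif2b1, Eif2b5, Eif3h, Eif2a, Eif2d, Eefsec and Eif4h among those called higher, and upper-quartile factors Eif4h. DESeq2 called Eif3m, Eif4a2 and Eif5b lower, and RLE size factors Eif5b. Scaling by library totals alone put the median log2 fold change of all genes at 0.056, beside -0.012 with TMM. With CPM from library totals alone, all 8 Tg libraries lay above all 8 WT libraries for 20 factor genes (895 of all 13666 tested genes), beside 8 with TMM (715), and below them for 1 in both.

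Genes called higher, averaged over the sexes, numbered 17 without the adipocyte-rich libraries. Genes called lower numbered 8 with DESeq2, 12 without those libraries, 8 with the marker covariate and 5 to 9 with 1 library left out. In females, 7 were higher and 7 lower without the adipocyte-rich libraries, and 2 to 5 were lower with 1 library left out. In males, 33 were called with library totals alone (30 of them higher), 9 were higher with RLE size factors, 7 were lower with DESeq2 and 7 without the adipocyte-rich libraries. With 1 library left out, males gave 10 to 23 calls, 7 to 16 of them higher and 3 to 7 lower. Calls over all tested genes in males were 2492 with all libraries. They were fewer in the fit that gave 10 calls and more in the fit that gave 23.

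The interaction over all genes gave 80 calls with DESeq2, 0 with upper-quartile factors, 11 with library totals, 8 with no filter on low counts, 13 without the adipocyte-rich libraries, 11 with the covariate and 0 to 23 with 1 library left out. The list of other initiation genes gave 6 calls with library totals and 6 to 11 with 1 library left out. The mitochondrial list gave 1 without the adipocyte-rich libraries and 1 to 5 with 1 library left out.

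The log2 fold change of Eef1akmt2 was -0.001 with DESeq2, -0.003 with RLE size factors, -0.06 without the adipocyte-rich libraries, -0.01 with the covariate and -0.04 to 0.07 with 1 library left out. Eif1ax was at -0.09 without those libraries, -0.008 with the covariate and -0.02 to 0.08 with 1 library left out, and Eif3a was at -0.04 without them. With library totals alone, the Eef1akmt4 readthrough was at 0.04, Eif3e at 0.06, Eif4e2 at 0.007 and Eif4g1 at 0.01. With 1 library left out, the readthrough ran from -0.26 to 0.12 and Eif3e from -0.06 to 0.06. The log2 ratio differences then ran from -0.16 to 0.14 for Eef1a1/Eef1a2, -0.05 to 0.12 for Eif1a/Eif1ax and 0.09 to 0.15 for Eif4e2/Eif4e. The limit that a count of 0 allows, 3 counts, is 0.0978 to 0.172 CPM per library and covers counting error only; the readthrough was at 0 in WT male 1.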
